A study of Drosophila melanogaster with 9 samples.

Results

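The serotonin receptor genes *5-HT1A*, *5-HT1B*, *5-HT2* and *5-HT7* and the serotonin transporter gene *SerT* were followed in late larval VNCs that carried neuroblast tumors with different levels of Chinmo. These 5 genes were found by symbol among the 15340 genes of the deposited table, and they were chosen from values already known in these same libraries. Their differences between conditions are therefore given as a description, without p-values. In all 3 conditions *nab-GAL4*, a driver for neuroblasts made from a GAL4 trap of the *nab* gene, was on before hatching and drove *UAS-dicer2* and an RNAi construct against *pros*. VNCs of *nab>prosRNAi* larvae carried no further transgene, those of *nab>prosRNAi, chinmoRNAi* larvae also carried an RNAi construct against *chinmo*, and those of *nab>prosRNAi, chinmo* larvae also carried *UAS-chinmo*. Each condition had 3 libraries, called A, B and C, from flies of different parents. A library pooled 57 to 79 brains of *nab>prosRNAi*, 58 to 78 of *nab>prosRNAi, chinmoRNAi* or 51 to 82 of *nab>prosRNAi, chinmo*. Crosses spent 7 days at 18°C and then 3 days at 29°C. No library of a VNC without a *pros* knock-down was analysed here, so every condition is a tumor condition.

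Serotonin is made in a small set of larval VNC neurons, and it acts on other cells through receptors that couple to G proteins. *5-HT1A* and *5-HT1B* encode receptors that lower cAMP, *5-HT7* encodes a receptor that raises cAMP, and *5-HT2* encodes a receptor of the family that signals through phospholipase C. SerT sits in the membrane of serotonergic neurons and takes serotonin back up after release. The receptors are found on many kinds of neurons, whereas the transporter marks the neurons that use serotonin themselves.

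Reads on genes numbered 30677075 to 39335800 per library in *nab>prosRNAi, chinmoRNAi*, 35575053 to 43415151 in *nab>prosRNAi* and 34712815 to 40518948 in *nab>prosRNAi, chinmo*. Values are read counts scaled by the size factor of their library, and they are called normalized counts below. The targets of the transgenes followed the labels for *chinmo*, which rose from 5425 normalized counts in *nab>prosRNAi, chinmoRNAi* by 0.66 on the log2 scale (SE 0.13, adjusted p = 0.00824) to *nab>prosRNAi*, and by a further 3.24 (SE 0.09, adjusted p = 1.73e-05) to *nab>prosRNAi, chinmo* (limma, Benjamini-Hochberg adjustment). Reads from the *UAS-chinmo* transgene and from the endogenous gene are not separated in this count. Expression of *pros* fell by 1.03 (SE 0.15, adjusted p = 0.00266) and fell by 0.88 (SE 0.11, adjusted p = 0.00461) at the same steps, although all conditions carried the same construct against it. The neuronal markers *elav* and *nSyb*, the neuroblast markers *mira* and *dpn* and the glial marker *repo* were detected in every library, *repo* being the lowest with 1602 normalized counts in library C of *nab>prosRNAi, chinmo*.

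All 5 genes were highest in *nab>prosRNAi, chinmoRNAi* and lowest in *nab>prosRNAi, chinmo* by their means. *5-HT1A* was at 1435, 1874 and 1142 normalized counts in libraries A, B and C of *nab>prosRNAi, chinmoRNAi*, at 785, 797 and 1132 in *nab>prosRNAi*, and at 608, 615 and 294 in *nab>prosRNAi, chinmo*. The conditions did not overlap, but library C of *nab>prosRNAi, chinmoRNAi* and library C of *nab>prosRNAi* were nearly equal. *5-HT1B*, which encodes the other receptor that lowers cAMP, was at 538, 617 and 424 normalized counts in *nab>prosRNAi, chinmoRNAi*, at 215, 244 and 341 in *nab>prosRNAi*, and at 142, 150 and 101 in *nab>prosRNAi, chinmo*. Its libraries fell into 3 separate ranges, one for each condition. Because whole VNCs were measured, fewer cells of a type and less RNA per cell cannot be told apart for any of these genes.

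*5-HT7* was at 1036, 1284 and 755 normalized counts in *nab>prosRNAi, chinmoRNAi*, at 385, 401 and 507 in *nab>prosRNAi*, and at 291, 300 and 163 in *nab>prosRNAi, chinmo*. Its ranges were separate as well, with the wider gap between *nab>prosRNAi, chinmoRNAi* and *nab>prosRNAi*. *5-HT2*, named *5-HT2A* in current annotation, was the least abundant per kilobase among the receptor genes followed here. It was at 149, 171 and 135 normalized counts in *nab>prosRNAi, chinmoRNAi*, at 53.8, 60.7 and 101 in *nab>prosRNAi*, and at 43.7, 69.7 and 33.5 in *nab>prosRNAi, chinmo*. Here the last conditions overlapped, since library B of *nab>prosRNAi, chinmo* was above libraries A and B of *nab>prosRNAi*.

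*SerT* was at 344, 473 and 386 normalized counts in *nab>prosRNAi, chinmoRNAi*, at 219, 262 and 401 in *nab>prosRNAi*, and at 196, 250 and 98.3 in *nab>prosRNAi, chinmo*. Its neighbouring conditions overlapped at both steps, and only the extremes of Chinmo level were separate. Library C stood apart in each condition for several of these genes, high in *nab>prosRNAi* and low in *nab>prosRNAi, chinmo*.

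**Figure D1:**
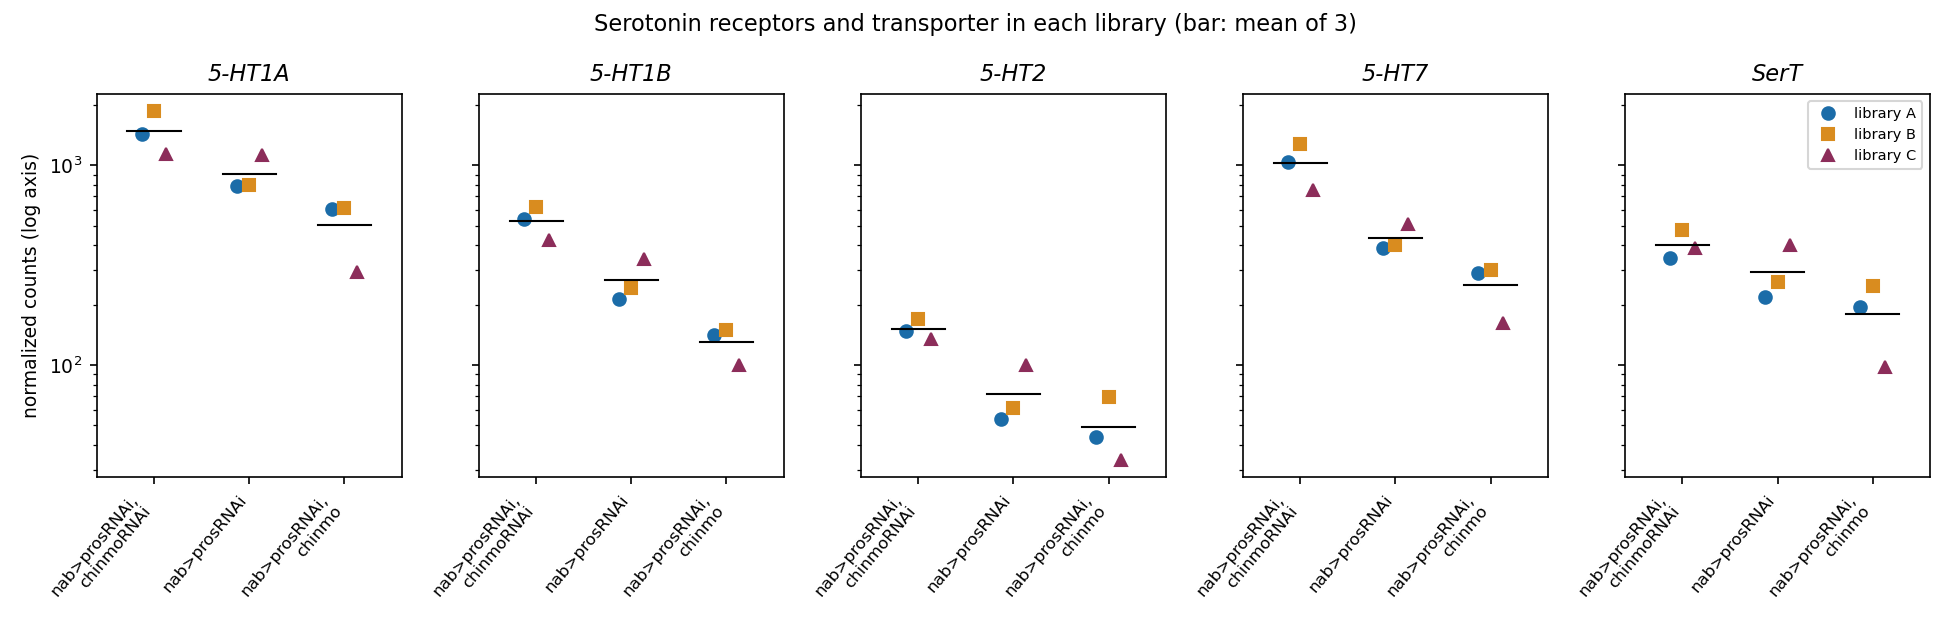
Normalized counts (log axis) of *5-HT1A*, *5-HT1B*, *5-HT2*, *5-HT7* and *SerT* in the 9 libraries of the 3 conditions. Symbols mark libraries A, B and C and the bar is their mean. Library C (triangles) is the highest of the *nab>prosRNAi* libraries and the lowest of the *nab>prosRNAi, chinmo* libraries for every gene.

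Levels were compared between genes per kilobase of the longest annotated transcript, which measures 3725 nt for *SerT* and 5019 nt for *5-HT1A*. In *nab>prosRNAi, chinmoRNAi*, *5-HT1A* had 296 ± 73.4 normalized counts per kilobase (SD, n = 3) and *5-HT7* had 229 ± 59.0 (SD, n = 3). *5-HT1B* followed with 131 ± 24.1, *SerT* with 108 ± 17.7 and *5-HT2* with 34.8 ± 4.15 (SD, n = 3 each). The level of *5-HT1A* per kilobase was above that of *5-HT7* in 9 of 9 libraries, by 1.24 to 1.99 times, although the ranges of the libraries overlapped within *nab>prosRNAi, chinmoRNAi*. *5-HT2* was the lowest in 9 of 9 libraries.

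The order of *5-HT1B* and *SerT* was not the same in the conditions. *5-HT1B* was above *SerT* per kilobase in 3 of 3 libraries of *nab>prosRNAi, chinmoRNAi*, and in none of the 6 libraries of the other conditions. In *nab>prosRNAi* the levels per kilobase were 66.2 ± 16.4 for *5-HT1B* and 78.9 ± 25.5 for *SerT*, and in *nab>prosRNAi, chinmo* they were 32.5 ± 6.60 and 48.7 ± 20.6 (SD, n = 3). The ranges of these neighbours overlapped between libraries, while *SerT* was the higher within each of the 6 libraries. *5-HT7* stayed above *SerT* in 8 of 9 libraries, the exception being library B of *nab>prosRNAi, chinmo*, where they were nearly equal. *5-HT1A* had 180 ± 39.3, *5-HT7* 96.1 ± 14.8 and *5-HT2* 16.5 ± 5.80 normalized counts per kilobase in *nab>prosRNAi* (SD, n = 3). In *nab>prosRNAi, chinmo* the levels per kilobase were 101 ± 36.6 for *5-HT1A*, 56.0 ± 17.0 for *5-HT7* and 11.2 ± 4.28 for *5-HT2* (SD, n = 3).

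The first comparison asks how the genes stand at the endogenous Chinmo level of the tumors against the level after *chinmo* knock-down. All 5 genes passed the filter on low values, a sum of at least 15 normalized counts. The log2 difference of *nab>prosRNAi* over *nab>prosRNAi, chinmoRNAi* was -1.23 (SE 0.21) for *5-HT7*, -1.11 (SE 0.28) for *5-HT2*, -0.99 (SE 0.22) for *5-HT1B*, -0.71 (SE 0.21) for *5-HT1A* and -0.48 (SE 0.24) for *SerT*. As ratios of the means, *5-HT7* was 2.38 times lower and *SerT* was 1.36 times lower. The 95% interval of *SerT* reached from -1.05 to 0.09 on the log2 scale and thus included 0. The 4 receptors passed an adjusted p of 0.05 and had no overlap between conditions, beside 17.9% of the 11470 tested genes called lower, 14.1% called higher and 25.8% lower without overlap. Since these same libraries chose the genes, nothing is read from that count. Without library A or B of *nab>prosRNAi, chinmoRNAi* it was 2, without library A or B of *nab>prosRNAi* it was 1, and without library C of *nab>prosRNAi* it was 5.

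The second comparison asks how they stand when *chinmo* is overexpressed in the tumors. The log2 difference of *nab>prosRNAi, chinmo* over *nab>prosRNAi* was -1.01 (SE 0.25) for *5-HT1B*, -0.89 (SE 0.31) for *5-HT1A*, -0.82 (SE 0.26) for *5-HT7*, -0.75 (SE 0.39) for *SerT* and -0.55 (SE 0.38) for *5-HT2*. Only *5-HT1B* passed the threshold, while 3 of the 5 genes had no overlap between the conditions. Across the 11057 tested genes, 8.26% were called lower, 9.74% were called higher and 22.2% were lower without overlap. The *5-HT1B* call was absent when any 1 of the 6 libraries was left out. These differences rested in large part on library C, which was the highest library of one condition and the lowest of the other. Without all libraries of letter C, a setting chosen after seeing the data, they were -0.65 for *5-HT1B*, -0.41 for *5-HT7*, -0.37 for *5-HT1A*, -0.11 for *SerT* and -0.05 for *5-HT2*, and *5-HT1A* was the one gene past the threshold. In that setting the first comparison gave larger differences, from -0.75 for *SerT* to -1.55 for *5-HT7*, and all 5 genes passed.

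Between the extremes of Chinmo level, *nab>prosRNAi, chinmo* over *nab>prosRNAi, chinmoRNAi*, the log2 difference was -2.04 (SE 0.29) for *5-HT7*, -2.00 (SE 0.23) for *5-HT1B*, -1.67 (SE 0.32) for *5-HT2*, -1.60 (SE 0.32) for *5-HT1A* and -1.23 (SE 0.35) for *SerT*. In ratios of the means, *5-HT7* was 4.08 times, *5-HT1B* 4.02 times and *SerT* 2.21 times lower. All 5 genes passed the threshold and none overlapped, beside 22.7% of the 11586 tested genes called lower, 19.9% called higher and 28.7% lower without overlap. Leaving out any 1 library of *nab>prosRNAi, chinmoRNAi* lost the call of *SerT*, and the 4 receptors kept theirs without any 1 of the 6 libraries. Without all libraries of letter C the differences lay between -0.86 for *SerT* and -1.97 for *5-HT1B*.

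**Figure D2:**
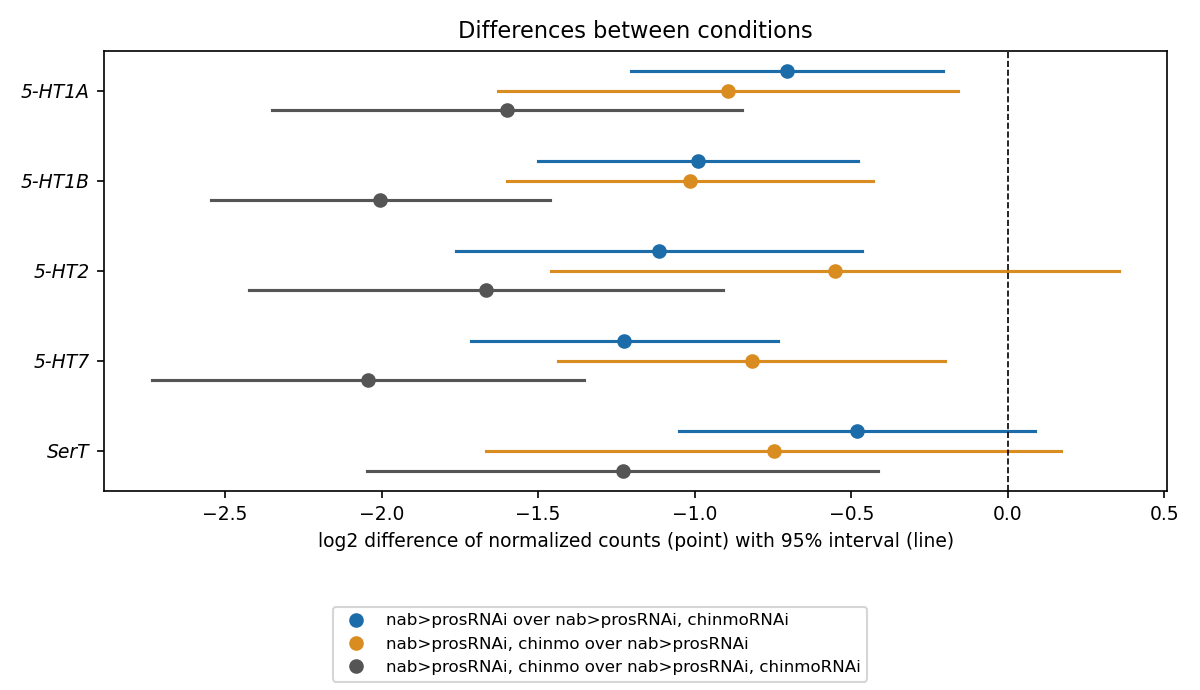
Log2 difference of normalized counts (points) with its 95% interval (lines) for each gene in the 3 comparisons between conditions. Every point is below 0, and the interval reaches 0 for *SerT* in the first comparison and for *5-HT2* and *SerT* in the second.

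The steps share the *nab>prosRNAi* libraries, so their difference was fitted as 1 contrast over the 9 libraries. The second step minus the first was 0.56 (SE 0.58) for *5-HT2*, 0.41 (SE 0.46) for *5-HT7*, -0.03 (SE 0.41) for *5-HT1B*, -0.19 (SE 0.52) for *5-HT1A* and -0.27 (SE 0.60) for *SerT*, on the log2 scale. None of the 5 passed the threshold by limma, edgeR or DESeq2, and none had an unadjusted p under 0.05 by any of them, beside 6.92% of the 11862 tested genes called in either direction. The intervals were wide, from -0.74 to 1.87 for *5-HT2* and from -1.61 to 1.08 for *SerT*, and they do not show that the steps were of equal size. Without all libraries of letter C the contrast was positive for all 5 genes, from 0.64 for *SerT* to 1.41 for *5-HT2*, and *5-HT7*, at 1.14, passed the threshold.

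The proportions among the genes moved less than their levels. *5-HT1A* made up 40.2% to 42.4% of the summed normalized counts of the 5 genes in *nab>prosRNAi, chinmoRNAi*, 45.2% to 47.3% in *nab>prosRNAi* and 42.6% to 47.5% in *nab>prosRNAi, chinmo*. The share of *5-HT7* was 26.6% to 29.6% in *nab>prosRNAi, chinmoRNAi*, above the 20.4% to 23.2% of *nab>prosRNAi* and the 21.6% to 23.7% of *nab>prosRNAi, chinmo*. The share of *SerT* was 9.82% to 13.6%, 13.2% to 16.2% and 14.3% to 18.1% in the same order. Across the 9 libraries the log2 values of any 2 of the 5 genes had a Pearson correlation between 0.89 and 0.98, a description over libraries that share condition and library differences.

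Neuronal markers fell along with the receptors and *SerT*, whereas neuroblast markers rose at the first step. The summed level of 12 neuronal markers was 105653 to 142131 normalized counts in *nab>prosRNAi, chinmoRNAi*, 68747 to 96001 in *nab>prosRNAi* and 32517 to 61783 in *nab>prosRNAi, chinmo*. Of these markers, 9 fell at the first step, 1 at the second and 11 between the extremes, with medians of -0.72, -0.83 and -1.57 on the log2 scale. The single call at the second step was *elav*, which encodes a neuronal RNA-binding protein and fell by 0.81 (SE 0.07, adjusted p = 0.00157, limma, Benjamini-Hochberg adjustment). The 7 neuroblast markers summed to 62944 to 81840 normalized counts in *nab>prosRNAi, chinmoRNAi*, 128784 to 144229 in *nab>prosRNAi* and 112555 to 132856 in *nab>prosRNAi, chinmo*. All 7 rose at the first step, and *mira*, which encodes an adaptor protein of dividing neuroblasts, fell by 0.46 at the second (SE 0.13, adjusted p = 0.0489). The other 6 did not pass at the second step, where the list's median was 0.04, and 6 of the 7 rose between the extremes. The glial marker *repo* fell by 0.78 at the first step (SE 0.15, adjusted p = 0.0064). Among cells outside the nervous system, the 6 fat body markers summed to 180375 to 505642 normalized counts in *nab>prosRNAi, chinmoRNAi*, 54975 to 212274 in *nab>prosRNAi* and 12780 to 123377 in *nab>prosRNAi, chinmo*, with 1, 0 and 3 of them called lower at the first step, at the second and between the extremes. The 4 hemocyte markers summed to 10401 to 17819, 5554 to 11223 and 2909 to 7797 in the same order of conditions, with 3, 0 and 3 called lower. The 5 salivary gland markers summed to 25.4 to 871 over all libraries, with 2 called higher at the first step, 4 lower at the second and 2 lower between the extremes, and *Sgs3* and *Sgs5* were at 0 in library A of *nab>prosRNAi, chinmo*. The 8 glial markers summed to 39323 to 61583 over all libraries, with 4 called lower and 2 higher both at the first step and between the extremes, and 1 lower and 1 higher at the second step. The part of these markers in the results was not tested.

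Set against *elav* in the same library, the genes differed by less between the extremes. The log2 ratio to *elav* changed by -0.05 for *5-HT1A*, -0.11 for *5-HT2*, -0.45 for *5-HT1B*, -0.49 for *5-HT7* and 0.32 for *SerT*, with an SD between libraries of a condition of 0.08 to 0.75. Set against the mean of the log2 values of the 12 neuronal markers, the change was -0.22 for *5-HT1A*, -0.29 for *5-HT2*, -0.63 for *5-HT1B*, -0.67 for *5-HT7* and 0.15 for *SerT*. The SD of this second ratio between libraries of a condition was 0.05 to 0.23. *5-HT7* changed in this ratio by -0.60 at the first step and by -0.07 at the second.

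Library C carried a difference shared with several synaptic genes. Against the mean of libraries A and B of its condition, library C was higher by 0.37 to 0.81 on the log2 scale for the 5 genes in *nab>prosRNAi*, and it was lower in *nab>prosRNAi, chinmo*, with values from -0.53 for *5-HT1B* to -1.16 for *SerT*. The synaptic vesicle gene *nSyb* was at 0.60 in *nab>prosRNAi* and at -0.89 in *nab>prosRNAi, chinmo* by the same measure, whereas *elav* was at -0.18 and 0.11. Not every synaptic gene shared the difference. *Syx1A* was at 2500, 2398 and 2475 normalized counts in libraries A, B and C of *nab>prosRNAi*. In *nab>prosRNAi, chinmo* it was at 2288, 2748 and 2322. Muscle genes moved in the same libraries. The 8 muscle markers summed to 12767 normalized counts in library C of *nab>prosRNAi* against 5110 to 5853 in A and B, and to 1290 in library C of *nab>prosRNAi, chinmo* against 3698 to 6834. Of these 8, 1 was called higher at the first step, 0 were called at the second and 2 were called lower between the extremes. In *nab>prosRNAi, chinmoRNAi* the libraries differed by transcript length. Over the 9954 genes compared, Spearman's rho between length and a library's deviation from its condition was 0.44 for library A, 0.57 for B and -0.69 for C. The longest transcripts of the 4 receptor genes belong to the uppermost length class, which starts at 3924 nt, and library C was the lowest of its condition for each of them. *SerT*, at 3725 nt, was lowest in library A. With the length trend removed, 4 of the 5 genes were called at the first step, 1 at the second and 5 between the extremes, the same numbers as without it. The calls over all genes did change. At the first step 2291 genes were called lower and 2918 higher, against 2048 and 1617 before. At the second step there were 777 and 1361, against 913 and 1077. Between the extremes there were 2685 and 3431, against 2626 and 2305.

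**Figure D3:**
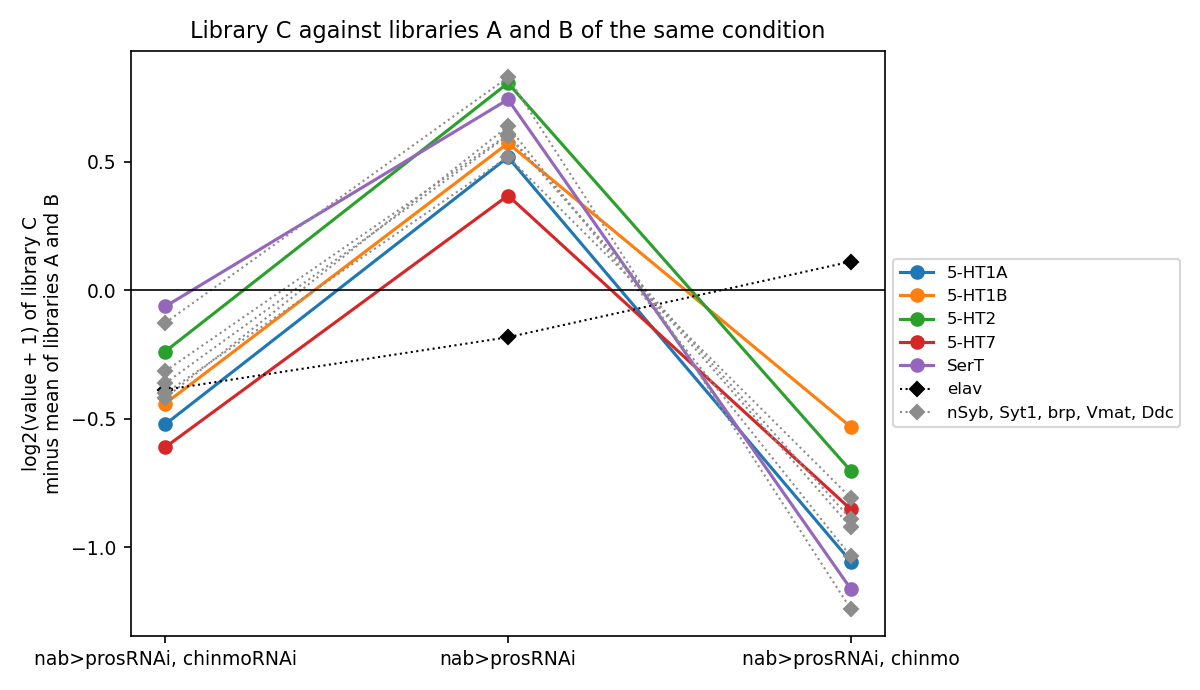
Log2 (normalized count + 1) of library C minus the mean of libraries A and B, for the 5 genes (solid lines), for *elav* (black) and for the neuronal genes *nSyb*, *Syt1*, *brp*, *Vmat* and *Ddc* (grey), in each condition. The solid and grey lines are above 0 in *nab>prosRNAi* and below 0 in *nab>prosRNAi, chinmo*, and *elav* is at -0.18 and 0.11.

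Genes of serotonin synthesis and storage were examined beside the receptors, in a list that also holds the N-acetyltransferase gene *Dat*, a gene of neither. *Ddc* encodes the decarboxylase that makes serotonin and dopamine, and it fell by 2.11 at the first step (SE 0.23, adjusted p = 0.000952) and fell by 2.79 between the extremes (SE 0.35, adjusted p = 0.000966), from 1522, 1904 and 1559 normalized counts in *nab>prosRNAi, chinmoRNAi* to 322, 311 and 562 in *nab>prosRNAi* and 272, 373 and 134 in *nab>prosRNAi, chinmo*. *Pu*, which encodes the GTP cyclohydrolase needed for the tetrahydrobiopterin cofactor, fell by 1.72 at the first step (SE 0.31, adjusted p = 0.00547), and *Dat*, which encodes an arylalkylamine N-acetyltransferase, fell by 1.55 (SE 0.19, adjusted p = 0.00128). *Vmat*, which encodes the transporter that loads monoamines into vesicles, fell by 0.96 (SE 0.21, adjusted p = 0.0113). All adjusted p-values of these genes are from limma with Benjamini-Hochberg adjustment over all genes tested.

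The neuronal tryptophan hydroxylase gene, listed as *Trh*, encodes the enzyme of the first step that is specific to serotonin synthesis. It was at 576, 666 and 609 normalized counts in *nab>prosRNAi, chinmoRNAi*, at 466, 422 and 734 in *nab>prosRNAi*, and at 366, 422 and 174 in *nab>prosRNAi, chinmo*. The first conditions overlapped, with a log2 difference of -0.23 (SE 0.21, adjusted p = 0.45), and the gene fell by 1.04 between the extremes (SE 0.32, adjusted p = 0.0358). *Hn*, which encodes phenylalanine hydroxylase, and *pr*, which encodes an enzyme of pteridine synthesis, did not pass in any comparison. Their values were unlike. The log2 differences at the first step, at the second and between the extremes were -1.01, -1.12 and -2.13 for *Hn*, and 0.07, 0.06 and 0.14 for *pr*. Between the extremes *Hn* was lower without overlap (SE 0.75, adjusted p = 0.0555, limma). Of the 7 genes of the list, *Dat* included, 4 fell at the first step, none at the second and 5 between the extremes. Over all genes tested, 17.9%, 8.26% and 22.7% were called lower in the same order. The list had medians of -1.01, -0.68 and -1.75 beside medians of all genes tested of -0.05, -0.02 and -0.03. At the second step 1 of the 7, *Pu*, had an unadjusted p under 0.05 by limma and by edgeR, and DESeq2 called it lower after adjustment. The further serotonin receptor gene, *CG42796* in the table and *5-HT2B* today, fell by 1.40 between the extremes (SE 0.31, adjusted p = 0.0102) and did not pass at either step.

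The receptors and transporters of dopamine, octopamine and tyramine were the closest comparison for these genes. Of the 13, 7 fell at the first step, 1 at the second and 11 between the extremes, with none rising and all 13 below 0 on the log2 scale in each comparison, with medians of -0.77, -0.78 and -1.46. The shares called lower among all genes tested were 17.9%, 8.26% and 22.7% in the same order. The largest decreases at the first step were those of *CG18208*, which encodes an octopamine receptor, with -1.52 (SE 0.15, adjusted p = 0.00063), of the octopamine receptor gene *Oamb* with -1.44 (SE 0.21, adjusted p = 0.00234), of *Oct-TyrR* with -1.31 (SE 0.20, adjusted p = 0.00316) and of *TyrRII* with -1.23 (SE 0.24, adjusted p = 0.00754). *CG18208* also fell by 1.30 at the second step (SE 0.27, adjusted p = 0.0229). The dopamine transporter gene *DAT* was at 160, 151 and 111 normalized counts in *nab>prosRNAi, chinmoRNAi*, at 142, 96.3 and 146 in *nab>prosRNAi*, and at 85.5, 111 and 121 in *nab>prosRNAi, chinmo*, and it did not pass in any comparison. Its conditions overlapped throughout.

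Transcription factors of serotonergic neuron fate split in direction. *eg*, which specifies the embryonic lineage that gives rise to serotonergic neurons, rose by 1.26 at the first step (SE 0.18, adjusted p = 0.00229), by 0.79 at the second (SE 0.13, adjusted p = 0.0114) and by 2.05 between the extremes (SE 0.16, adjusted p = 0.000206). *hkb*, which acts with *eg* in that lineage, rose by 0.98 at the first step (SE 0.12, adjusted p = 0.00143), and the difference between the steps passed for it, at -1.36 (SE 0.25, adjusted p = 0.0159). *tup*, an Islet-type factor of differentiated neurons, fell by 1.00 at the first step (SE 0.17, adjusted p = 0.00395) and fell by 1.09 at the second (SE 0.20, adjusted p = 0.0157). *zfh2* fell by 0.36 at the second step (SE 0.07, adjusted p = 0.0197), and *en* did not pass in any comparison.

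Among the 16 genes of receptor coupling, 3 fell and 2 rose at the first step, 3 fell at the second, and 7 fell and 1 rose between the extremes, with medians of -0.20, -0.18 and -0.31. Over all genes tested, 17.9% were called lower and 14.1% higher at the first step, and the counts of the list were near these shares there. The shares were 8.26% and 9.74% at the second step, and 22.7% and 19.9% between the extremes. *G-oalpha47A*, the gene of the neuronal Go alpha subunit, fell by 1.02 at the first step (SE 0.15, adjusted p = 0.00259) and fell by 1.61 between the extremes (SE 0.19, adjusted p = 0.000745). *Pka-C1*, the catalytic subunit of the cAMP-dependent kinase, fell by 0.66 at the first step (SE 0.12, adjusted p = 0.00511) and fell by 0.39 at the second (SE 0.06, adjusted p = 0.00874), and *rut*, an adenylyl cyclase gene, fell by 0.57 at the second (SE 0.07, adjusted p = 0.00351). *norpA*, a phospholipase C gene, rose by 0.93 at the first step (SE 0.13, adjusted p = 0.00201). *Gbeta13F* fell by 0.36 at the first step (SE 0.12, adjusted p = 0.0476). *G-ialpha65A*, the gene of the Gi alpha subunit, rose by 0.34 at the first step (SE 0.10, adjusted p = 0.0369) and fell by 0.25 at the second (SE 0.06, adjusted p = 0.0279).

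Across the lists other than the receptors and *SerT*, 15 of 42 genes fell and 4 rose at the first step, 6 fell and 1 rose at the second, and 26 fell and 3 rose between the extremes. Among all genes tested, 17.9%, 8.26% and 22.7% were called lower and 14.1%, 9.74% and 19.9% higher in the same order. Without all libraries of letter C the genes that fell numbered 28 at the first step, 8 at the second and 28 between the extremes, and without library C of *nab>prosRNAi, chinmoRNAi* alone they numbered 23 at the first step. At the second step they numbered 3 without library A and 2 without library B of *nab>prosRNAi*.

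**Figure D4:**
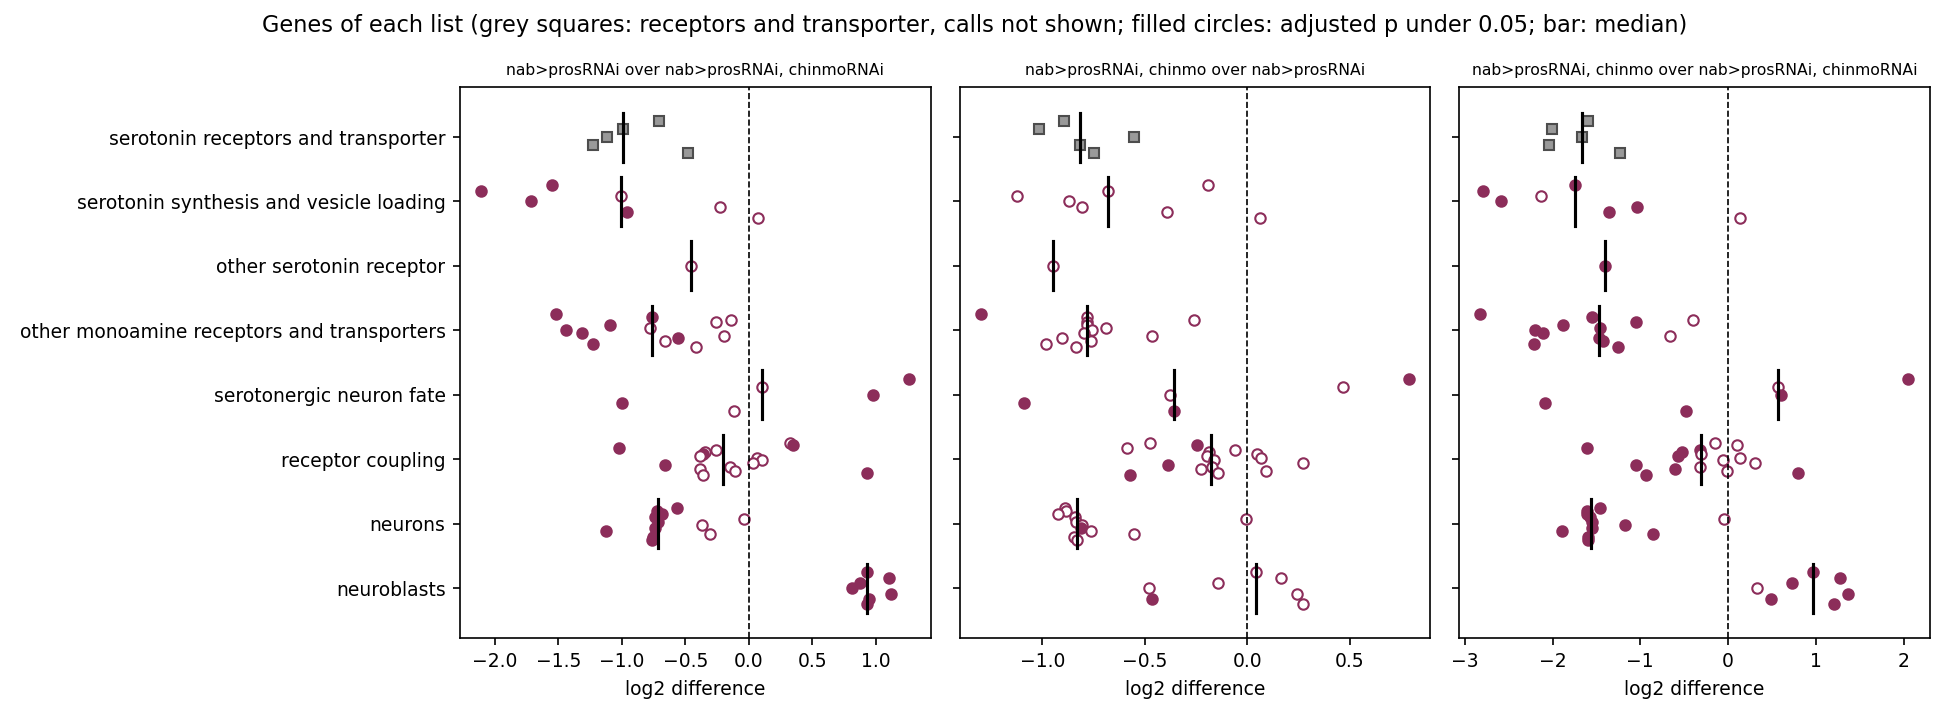
Log2 difference of each gene of the serotonin, monoamine and marker lists in the 3 comparisons. Grey squares are the 5 receptor and transporter genes, shown without their calls, filled circles are genes with an adjusted p under 0.05, open circles did not pass, and bars are list medians. Medians of the receptor, synthesis and neuronal lists lie below 0 in each panel, and all 7 neuroblast genes are filled and above 0 in the first panel.

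The genes whose log2 values followed each of the 5 most closely over the 9 libraries were looked up among 8696 genes with a mean of at least 50 normalized counts. *5-HT1A* was followed by *IA-2*, *CG42450* and *CG43462* (Pearson r of 0.997 for each), *5-HT1B* by *dao*, *unc-13-4A* and *Rim* (0.996 to 0.998), and *5-HT7* by *CG42261*, *2mit* and *CG31064* (0.998 for each). *5-HT2* was followed less closely, by *tadr*, *CG34106* and *endoB* (0.984 to 0.986). *SerT* was followed by *Cha*, which encodes choline acetyltransferase, by *Hdc*, which encodes histidine decarboxylase, and by *CG10186* (0.991 to 0.992). These values describe likeness over libraries that share condition, depth and the deviation of library C.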

How the data were processed

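The authors aligned reads from poly-A, stranded libraries to dm3 with TopHat2 2.0.9 and Bowtie2 2.1.0, counted them on genes with HTSeq 0.5.3p9 and normalized the counts with DESeq. Versions are those of the submitters' processing notes; for DESeq these give 1.2.5, and the study's methods give another version. They deposited 1 table of signal values, that is, read counts scaled by the size factor of their library. Every value (100%, within 0.001 reads) was a whole multiple of 1 read, so reads were recovered. No column was left unused (0). Coordinates of dm3 were not used. The annotation of a later release served for names, transcript lengths (14953 genes) and chromosomes.

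Libraries were grouped by genotype. For each comparison, limma 3.58.1 (R 4.3.3) was fitted to log2(value + 1) in the 6 libraries, a scale that understates changes of low genes. Genes needed a summed value of 15 or more, eBayes used a trend, and genes with an adjusted p (Benjamini-Hochberg) under 0.05 were called. The difference between the steps used all 9 libraries. The script was tested on simulated counts that held no deviation such as that of library C, so that test does not cover such a deviation. Replicates of a condition came from different parent flies.

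The genes of interest and the lists were chosen with earlier results of these data known. Named are these 5 genes, *chinmo*, *pros*, the synthesis list, the other serotonin receptor, up to 4 called genes per further list and comparison, *elav*, *nSyb*, *mira*, *dpn*, *repo*, and the 3 genes most like each of the 5. *DAT*, *en*, *Sgs3*, *Sgs5*, *Syx1A* and the further neuronal genes of the library C plot were named after their values were seen. Alternatives were pseudocounts of 0.5 and 10, no filter, a mean of at least 10, 3 rescalings (median of ratios, same total, upper quartile), 1 model over the 9 libraries, a replicate block, eBayes with no trend, edgeR 4.0.16 and DESeq2 1.42.0 on recovered reads, removal of a length trend, each library left out in turn, and all libraries of letter C left out, which was added after seeing the data. Figures used matplotlib.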

Additional observations from a re-analysis of the deposited data

How the results depend on the processing

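Of the 5 genes, those called lower at the first step numbered 4 as reported and 3 to 5 with every alternative but those that left out 1 library, where they numbered 1 to 5. At the second step the 1 call became 0 with eBayes without a trend or with the replicate block, 3 with DESeq2, and 0 without any 1 library. Between the extremes the number stayed at 4 to 5. The difference between the steps passed for 0 genes under the other alternatives and for 1 without all libraries of letter C. Further pathway genes called lower at the first step numbered 28 without all libraries of letter C and 11 to 23 with 1 library left out. At the second step they numbered 3 with eBayes without a trend, 0 with the replicate block, 13 with DESeq2, and 2 to 7 with 1 library left out.

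No direction of a called difference of the 5 genes changed in any alternative. The labels do not say what the letters stand for. The correlation of deviations between same-letter libraries ran from -0.47 to 0.33. With 3 libraries per condition, these values cannot show whether libraries of a letter share a batch. With the replicate block, 45 genes in all were called lower and 125 higher at the second step, against 913 and 1077 without it; DESeq2 called 1494 and 1695, and eBayes without a trend 547 and 667. Scaling to the same total shifted the median of all genes between the extremes from -0.03 to -0.15 and changed the calls to 2964 lower and 1608 higher, from 2626 and 2305. At the second step it gave 1621 and 817, and edgeR gave 744 and 1336. For the difference between the steps, edgeR called 532 genes lower and 379 higher, against 389 and 432. With 3 libraries per condition, a log2 difference such as that of *SerT* at the first step, -0.48 with an SE of 0.24, could not be told from 0.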
